A study of Brassica oleracea with 8 samples.

Results

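TO1000 is a rapid cycling, doubled haploid line of Brassica oleracea (var. alboglabra), a species that also holds kale and cabbage, and its genome is the reference to which every library was mapped. The comparison set its 3 libraries against the average of the kale and cabbage group means. Within it, the genes described are those on which TO1000 lay outside both leafy crops in the same direction. RNA sequencing counts of all 8 deposited libraries were used, with 3 of TO1000, 3 of kale and 2 of cabbage. Each library was made from the pooled shoot tips of 8 plants. All plants were grown together under days of 10 light hours and sampled 24 days after planting, when the top of the stem was taken with its meristems and the leaves still forming on it. The kale is var. viridis in the deposited labels and var. acephala Red Winter in the study's methods. For the cabbage the labels give var. sabadua, and the methods var. capitata. Each morphotype is a single accession, so morphotype and accession cannot be told apart, and the number of expanded leaves at sampling also differed between the morphotypes, so neither can morphotype and developmental stage. A gene was called set apart when TO1000 differed from kale and from cabbage in the same direction, each by more than 1 on the log2 scale and with an FDR below 0.05 (edgeR, Benjamini-Hochberg). By that rule TO1000 was set apart on 3392 of 28126 tested genes (12.1%), higher on 1786 and lower on 1606.

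Rapid cycling lines flower early and without a long cold period, while heading and leafy forms of the species keep producing leaves. In Arabidopsis, and by its close kinship in Brassica, FLC and its MAF relatives encode MADS-box proteins that hold back flowering, and FLC is lowered by prolonged cold (vernalization). FLC acts by repressing floral integrators such as SOC1, a MADS-box gene that promotes the transition of the shoot apex to flowering. Brassica shoots also carry glucosinolates, sulfur compounds that the enzyme myrosinase (TGG) cleaves into defensive products when tissue is damaged.

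The libraries held 3016197 to 7539991 counts on genes, and those of TO1000 held 5310933, 6863962 and 6349316. TO1000 replicates 2 and 3 and kale replicate 3 stood apart in the number of features with at least 1 count. Thinned to 3016197 counts each, these 3 libraries had 39007, 39827 and 39080 features detected, TO1000 replicate 1 had 35562, and the other 4 had 31250 to 33321. The 5 shoot apex and young leaf markers other than REVOLUTA were counted in all 8 libraries, and the summed level of all 7 was 111 to 122 CPM in TO1000, 41.1 to 64.6 in kale and 115 to 125 in cabbage (CPM, counts relative to the library's total on tested genes after scaling by TMM factors). Both REVOLUTA copies were at 0 in cabbage and below 0.1 CPM on average in TO1000, against means of 2.19 and 6.64 CPM in kale. They ran opposite to the other 5, whose means were all higher in TO1000 than in kale. The 6 epidermis and trichome markers summed to 46.8 to 48.1 CPM in TO1000, 61.9 to 94.9 in kale and 38.4 to 49.8 in cabbage, and the 3 chloroplast markers to 26.6 to 32.5, 19.4 to 26.2 and 49.9 to 50.3 CPM. The root marker AGL12 reached at most 3.28, 0.538 and 6.88 CPM in the same order, and the anther marker MYB80 1.50, 0 and 0.838 CPM. AP1, a marker of the floral meristem, reached at most 0.148 CPM in TO1000 and 0.168 in cabbage, against 5.26 to 6.74 CPM in kale. The sums hide members that went opposite ways between TO1000 and kale. Of the epidermis and trichome markers EGL3 alone was higher in TO1000 (mean 24.2 against 5.59 CPM), and the others were lower, such as GL2 (0.632 against 10.3). Of the chloroplast markers CPN60 alone was lower (0.697 against 10.3 CPM). Most of these markers were named by the study for differences seen in these libraries. The part of these differences in the results below was not tested. In pooled tissue, fewer cells of a type and less RNA per cell cannot be told apart.

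Against the average of kale and cabbage, 6835 of the 28126 genes (24.3%) were called, 3952 higher in TO1000 (14.1%) and 2883 lower (10.3%), in edgeR's quasi-likelihood fit of all 8 libraries. A call against an average does not place TO1000 outside both crops. Of the 3952 higher genes 1786 (45.2%) were set apart, while 950 were called against kale only, 1079 against cabbage only and 95 against neither. A further 42 were called in opposite directions against the crops. Of the 2883 lower genes 1606 (55.7%) were set apart, with 702 called against kale only, 553 against cabbage only, 18 against neither and 4 in opposite directions. In all, 353 of the higher and 88 of the lower calls had TO1000 between the other group means on the fitted log2 scale.

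The share of higher calls in this contrast differed between subsets of genes and between ways of grouping the crops. On the log2 scale a group with 0 counts pulls the average of kale and cabbage far down, and 793 of the higher calls but 129 of the lower calls had a group at 0. Among genes without such a group, 53.4% of the calls were higher in TO1000 (3159 against 2754), compared with 57.8% over all calls. When the 5 libraries of kale and cabbage were taken as 1 group, 3975 genes were called and 44.6% of them were higher in TO1000. That fit also counted differences between kale and cabbage as spread, and the part of averaging and of spread was not tested. An alternative chosen after the data were seen left out TO1000 replicates 2 and 3 and kale replicate 3. It leaves TO1000 replicate 1 alone in its group, with a spread assumed equal to that of the other groups.

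The same rule applied to each morphotype in turn gave 3392 genes for TO1000, and 1845 genes higher and 1352 lower for kale, against 1143 higher and 1677 lower for cabbage. The share of higher genes was 52.7% in TO1000, 57.7% in kale and 40.5% in cabbage. These comparisons share their libraries in pairs and cabbage has 1 library fewer, so the counts are given side by side only. On 99 of the 1786 higher genes both crops had 0 counts in every library, and on 94 of the 1606 lower genes TO1000 had 0 counts in all 3 libraries. Against kale alone 7791 genes were called (27.7%), with 13.5% of tested genes higher in TO1000 and 14.2% lower, and against cabbage alone 7380 (26.2%), with 14.8% higher and 11.5% lower. The count of genes set apart without cabbage replicate 2, a fit in which the spread of the single cabbage library left is assumed equal to that of the other groups, was 2376, with 1103 higher and 1273 lower, so that 46.4% were higher. The fit without the 3 libraries with the most features detected rests on a single TO1000 library and is not drawn on here for the direction. Which direction held more genes therefore depended on the libraries used.

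**Figure D1:**
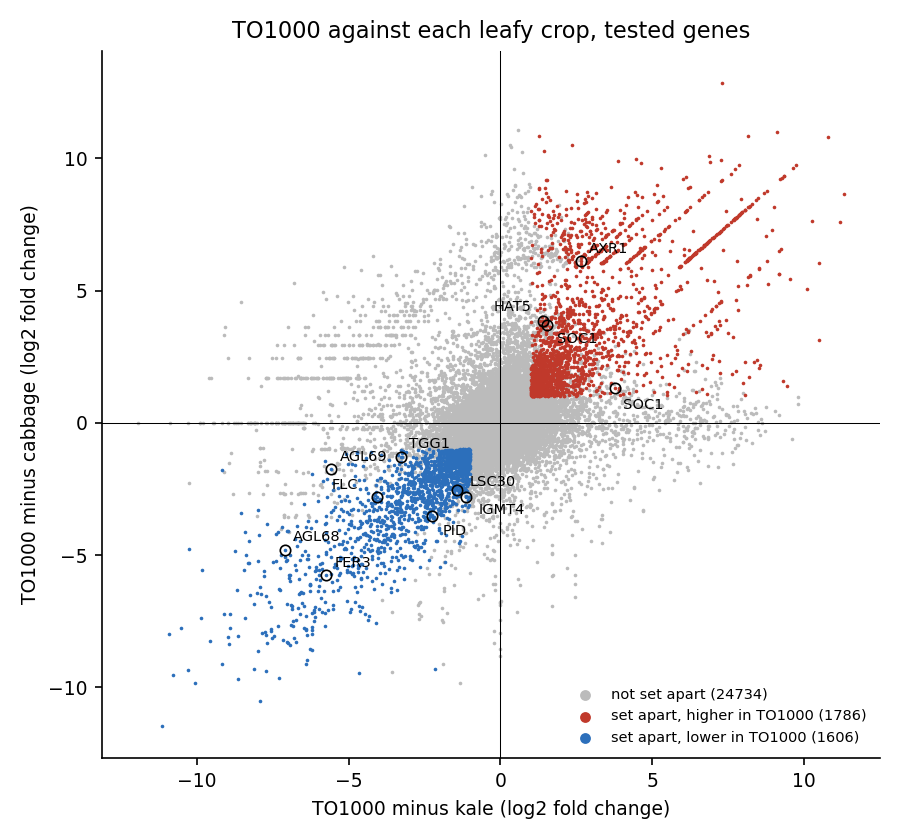
Each point is 1 of the 28126 tested genes, with the log2 fold change of TO1000 against kale on the x axis and against cabbage on the y axis. Red points (1786) are set apart and higher in TO1000, blue points (1606) set apart and lower, and grey points the rest, with circles and symbols on the 12 listed genes that were set apart. The straight streaks are genes with 0 or few counts in a group, whose fitted fold changes depend on the prior count and are not measured sizes.

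Many of these differences were large. The smaller of the 2 pairwise log2 fold changes lay between 1 and 2 for 900 higher and 806 lower genes, between 2 and 3 for 376 and 341, between 3 and 4 for 210 and 191, and between 4 and 6 for 158 and 181. It exceeded 6 for 142 higher and 87 lower genes, many of them genes with a group at 0, whose fitted fold change has no measured size. At the threshold itself, 290 genes were just inside, at 1.00 to 1.10, and 283 genes that met the FDR in both comparisons were just outside, at 0.90 to 1.00. The median level of the higher genes was 7.38 CPM in TO1000, 1.29 in kale and 0.878 in cabbage. The median level of the lower genes was 1.60 CPM in TO1000, 9.87 in kale and 9.59 in cabbage.

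All 3 TO1000 libraries lay above all 5 others on 1684 of the 1786 higher genes, and below them on 1568 of the 1606 lower genes. Over all tested genes the libraries were separated this way on 3946 genes above (14.0%) and 4013 below (14.3%), and the rule itself fixes most of the separation among genes set apart. Among genes with at least 10 counts in each TO1000 library, the 3 replicates spanned less than 2-fold on 1331 of 1581 higher genes (84.2%) and 655 of 727 lower genes (90.1%), against 93.2% of all tested genes. Kale and cabbage were called different from each other on 326 of the higher genes (18.3%) and 381 of the lower genes (23.7%), where 25.7% of all tested genes were called between them, 14.7% higher in kale and 11.1% higher in cabbage. On the remainder the crops did not pass the test, which does not show that they were alike.

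In the share of reads, the genes higher in TO1000 took up 6.10%, 7.92% and 6.99% of the counts in its 3 libraries and 1.03 to 1.71% in the other 5. The genes lower in TO1000 took up 2.99%, 3.26% and 3.17% in TO1000 and 8.61 to 9.80% in the others. The groups did not overlap on either share, as the choice of genes implies. On the TMM scale the mean share of the lower genes in TO1000 was 2.82%, and 6.22% without cabbage replicate 2 and 1.81% without TO1000 replicate 1, each with the genes then set apart.

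In the lowest quintile of tested genes by mean level over all 8 libraries (0.454 to 2.64 CPM) 12.5% were set apart higher and 6.49% lower, and in the highest quintile (from 29.2 CPM) 2.79% and 4.82%. The middle quintiles had 8.50, 4.50 and 3.43% higher and 7.24, 5.32 and 4.69% lower in rising order of level. A gene high in the 3 TO1000 libraries only has a lower mean over the 8 than a gene high in the 5 others, so the quintile is not independent of the direction. Near the lower end of the lowest quintile, a gene passed the count filter only if its counts were concentrated in some libraries. The shares there therefore depend in part on the filter. In TO1000 itself the median of the higher genes was 7.38 CPM, against 9.21 CPM over all tested genes.

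**Figure D2:**
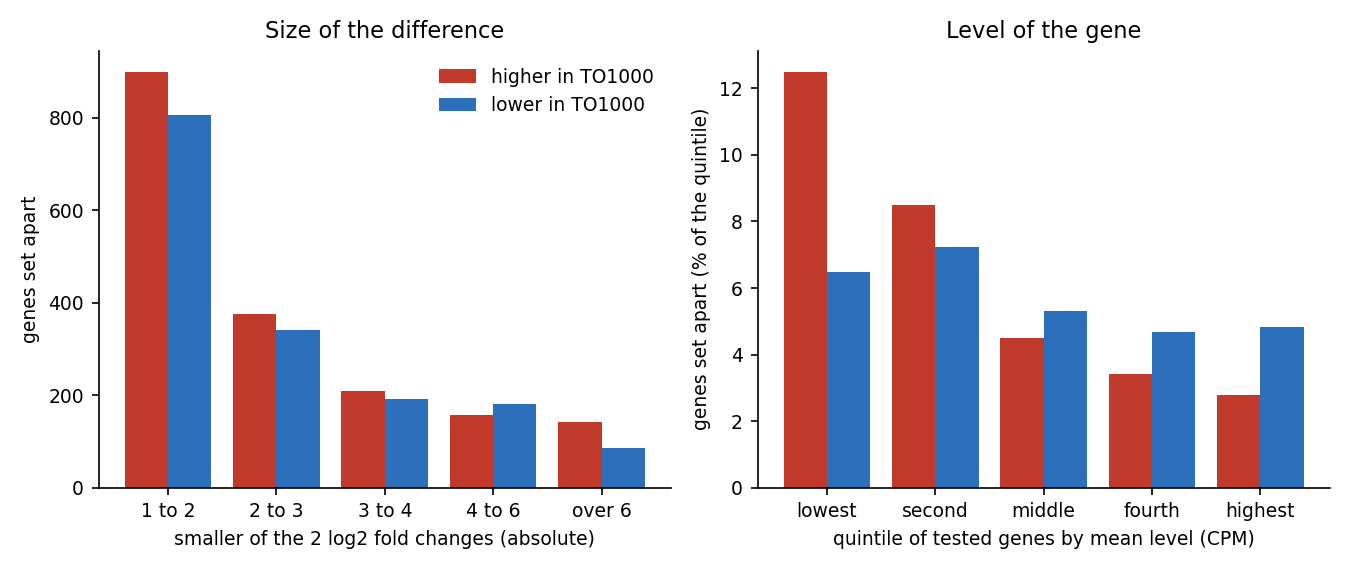
The left panel gives the number of genes set apart by the smaller of their 2 absolute log2 fold changes, from 900 higher and 806 lower genes at 1 to 2 down to 142 and 87 beyond 6. The right panel gives the percent of genes set apart in each quintile of tested genes by mean CPM, where the higher genes (red) fall from 12.5% to 2.79% and the lower genes (blue) lie between 4.69% and 7.24%.

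A list of 83 genes with names, in 7 groups by role, was used to describe what TO1000 expressed differently. The study picked most of these genes for differences seen in these very libraries, so their counts are not independent evidence of a direction, and only genes of known name could be grouped. Of the 83, 78 had enough counts to be tested, 10 were called higher and 19 lower against the average of the crops, beside 14.1% and 10.3% of all tested genes. Of the 78, 12 were set apart (4 higher, 8 lower), beside 12.1% of all tested genes. The median log2 difference of the 78 genes was -0.47, against 0.04 over all tested genes. When the 5 other libraries were taken as 1 group, 18 of the listed genes were called rather than 29 in all.

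**Figure D3:**
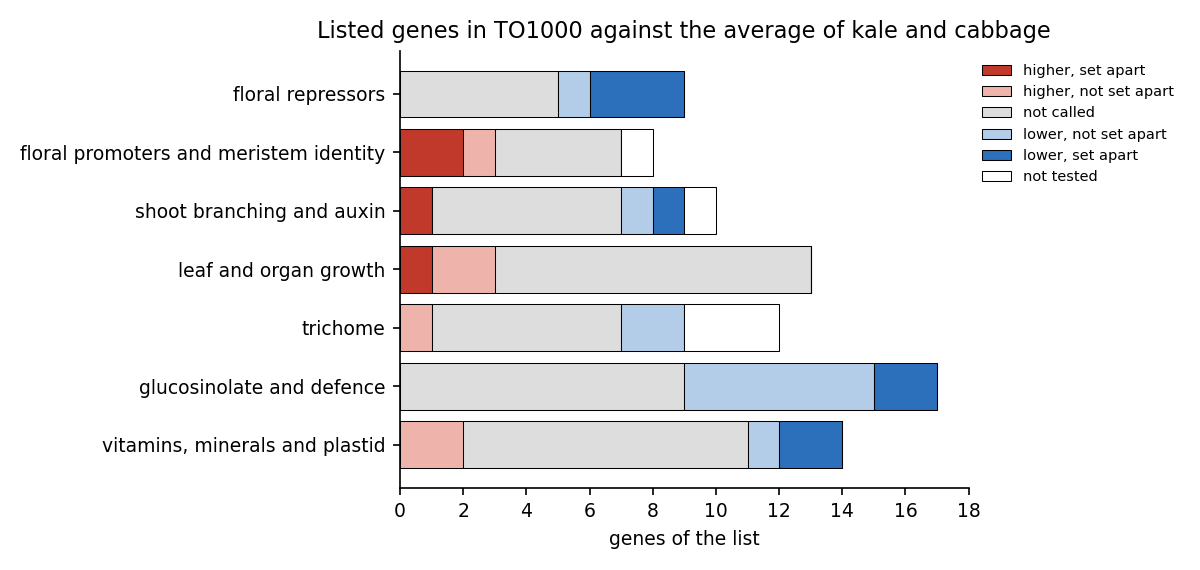
Bars count the genes of each of the 7 lists by their call in TO1000 against the average of kale and cabbage, with dark colours for genes set apart from both crops, pale colours for genes called but not set apart, grey for genes not called and white for genes not tested. Floral repressors and glucosinolate genes have calls in the lower direction only (4 of 9 and 8 of 17, beside 10.3% of all tested genes). Floral promoters and leaf and organ growth genes have calls in the higher direction only (3 of 7 tested and 3 of 13, beside 14.1%).

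Against the average of the crops, the floral repressors that passed the test were lower in TO1000. Of 9 tested genes, 4 were called lower and none higher (10.3% and 14.1% of all tested genes), 3 of the 4 were set apart (5.71% of all), and the median log2 difference was -1.14. FLC (Bo3g024250, by its identifier on chromosome 3), the central repressor of the vernalization pathway, had 0.945, 0.956 and 0.885 CPM in the TO1000 replicates. It had 16.6, 14.9 and 15.8 CPM in kale and 5.43 and 7.37 CPM in cabbage. The 3 TO1000 libraries were nearly level and far below every other library, and kale was above cabbage. FLC fell by 3.43 on the log2 scale against the average (SE 0.28, edgeR Benjamini-Hochberg adjusted p = 1.03e-07), by 4.06 against kale (SE 0.28, adjusted p = 1.94e-08) and by 2.80 against cabbage (SE 0.34, adjusted p = 8.66e-06). It remained set apart in all 19 alternatives.

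The other listed FLC copy, Bo9g173370 on chromosome 9, was called against the average although TO1000 did not lie outside both crops. It had 3.15, 3.82 and 2.95 CPM in TO1000, 31.2, 17.4 and 20.6 CPM in kale and 2.53 and 2.18 CPM in cabbage, so TO1000 sat far below kale and slightly above both cabbage libraries. The call was lower (log2 difference -1.14, SE 0.29, edgeR Benjamini-Hochberg adjusted p = 0.00551), yet the difference from cabbage was 0.52 (SE 0.40, adjusted p = 0.324). Both listed FLC copies were thus lower in TO1000 than in kale, and of them Bo3g024250 alone was lower than in cabbage as well. The study mentions further FLC copies in the species, which were not looked at here.

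Both genes named MAF5 were also lowest in TO1000, with few counts there and in cabbage. AGL69/MAF5 (Bo3g100540) had 0.157, 0.410 and 0.295 CPM in TO1000, 16.5, 15.4 and 12.7 CPM in kale and 1.09 and 1.01 CPM in cabbage. TO1000 was lowest and cabbage nearer to it than to kale. The fall against kale was 5.57 on the log2 scale (SE 0.37, edgeR Benjamini-Hochberg adjusted p = 1.24e-08), whereas the fall against cabbage of 1.75 (SE 0.63, adjusted p = 0.0423) rested on 9 counts in cabbage and 6 in TO1000. That second call held in 6 of 19 alternatives, and was lost without cabbage replicate 1, cabbage replicate 2, kale replicate 1, kale replicate 2, TO1000 replicate 1 or TO1000 replicate 3, with adjusted p of 0.0942, 0.199, 0.0509, 0.0539, 0.105 and 0.0752 in that order.

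AGL68/MAF5 (Bo01054s030, on an unplaced scaffold) had 0 counts in all 3 TO1000 libraries, 24, 22 and 6 counts in kale and 2 and 3 counts in cabbage. Taking 3 counts over the TO1000 group as the limit of a count of 0 (0.147 CPM), TO1000 was at least 20.8-fold lower than kale and at least 3.90-fold lower than cabbage, bounds that cover counting error of the 0 only. The gene passed the count filter through its counts in kale. Its call against cabbage (edgeR Benjamini-Hochberg adjusted p = 0.0201) rested on 5 counts in cabbage and 0 in TO1000. The gene was tested in 15 alternatives, dropping out when thinned for example, and stayed set apart in 11 of them. The call against cabbage was lost with glmTreat (adjusted p = 0.0596) and without cabbage replicate 1 or cabbage replicate 2 (log2 differences -4.71 and -5.10).

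The other 5 genes of the list did not pass the test against the average, and in the pairwise tests they went both ways. AGL27/MAF1 (Bo3g100570) and the FRIGIDA-like gene FRL4A (Bo5g097000) were lower than in kale by log2 differences of -1.71 and -4.69 and were not called against cabbage. AGL70/MAF3 (Bo03856s010) was higher than in kale (log2 difference 3.36, edgeR Benjamini-Hochberg adjusted p = 0.0104), where it had a count in 1 library only. LHP1/TFL2 (Bo2g013840), a chromatin protein, was higher than in kale (1.11, adjusted p = 0.0132) and lower than in cabbage (-1.21, adjusted p = 0.00594). The clock gene ELF3 (Bo4g159930) was lower than in kale (-1.43, adjusted p = 0.000895) and higher than in cabbage (1.12, adjusted p = 0.0479).

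Against the average, the floral promoters that passed the test were higher in TO1000. Of 7 tested genes 3 were called higher and none lower (14.1% and 10.3% of all tested genes), and 2 were set apart (6.35% of all), both of them copies of SOC1. Against kale alone 5 were higher and 2 lower (13.5% and 14.2% of all tested genes), the latter being AP1 and the homeodomain gene BLH3. SOC1 (Bo3g038880) had 11.6, 11.5 and 8.71 CPM in TO1000, 4.81, 3.41 and 2.39 CPM in kale and 0.362 and 1.01 CPM in cabbage. Every TO1000 library was above every other, and kale was above cabbage. The gene was higher by 1.53 on the log2 scale than in kale (SE 0.30, edgeR Benjamini-Hochberg adjusted p = 0.000732) and by 3.72 than in cabbage (SE 0.47, adjusted p = 1.56e-05). Without cabbage replicate 2 the difference from cabbage was 4.79.

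SOC1 (Bo4g024850) had 4.09, 5.05 and 3.84 CPM in TO1000, 0.137, 0.359 and 0.478 CPM in kale and 1.81 and 1.68 CPM in cabbage. Here cabbage stood above kale, the reverse of the order in the copy on chromosome 3, with TO1000 highest on both. The log2 difference was 3.77 against kale (SE 0.52, edgeR Benjamini-Hochberg adjusted p = 3.79e-05) and 1.32 against cabbage (SE 0.48, adjusted p = 0.0376). The call against cabbage held in 8 of 19 alternatives. It was lost without cabbage replicate 1, cabbage replicate 2, TO1000 replicate 1, TO1000 replicate 2 or TO1000 replicate 3, with adjusted p of 0.0967, 0.194, 0.0502, 0.115 and 0.0604 in that order, while all of these kept the direction.

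SPL3 (Bo4g042390), which encodes an SBP-box factor that promotes flowering, had 17.9, 20.8 and 21.0 CPM in TO1000, 4.12, 4.30 and 5.50 CPM in kale and 13.8 and 13.2 CPM in cabbage. The 3 groups did not overlap, but the difference from cabbage was 0.56 on the log2 scale (edgeR Benjamini-Hochberg adjusted p = 0.0521), short of both thresholds. SPL3 was thus called only against kale (2.12) and against the average (1.34, SE 0.18, adjusted p = 1.77e-05). AP1, which specifies floral meristems, was nearly uncounted in TO1000 and in cabbage, as given with the markers above, and did not pass the test against the average (log2 difference -2.90, adjusted p = 0.0638). It was lower than in kale (log2 difference -5.62, SE 0.61, edgeR Benjamini-Hochberg adjusted p = 3.06e-06). BLH3 (Bo6g119600), at 2.07 to 3.31 CPM in TO1000, 6.82 to 13.2 CPM in kale and 2.01 and 2.53 CPM in cabbage, was also lower than in kale (-1.92, SE 0.32, adjusted p = 0.000239).

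Among 9 tested genes of shoot branching and auxin, 1 was called higher and 2 lower (14.1% and 10.3% of all tested genes), and AXR1 and PID were set apart in opposite directions. AXR1 (Bo8g115290), a subunit of the enzyme that activates the ubiquitin-like modifier of auxin signalling, had 12.8, 7.38 and 8.12 CPM in TO1000, 1.92, 1.79 and 0.478 CPM in kale and 0 and 0.168 CPM in cabbage. TO1000 was well above both. The gene was higher by 2.64 on the log2 scale than in kale (SE 0.40, edgeR Benjamini-Hochberg adjusted p = 8.60e-05), and with 190 counts against 1 the ratio to cabbage was 81.1 (95% exact interval 14.4 to 3220, counting error only). That 1 count was in cabbage replicate 2. A different gene model of the same name, AXR1 (Bo8g102450), was at 0 in TO1000, at 9.21, 5.38 and 5.26 CPM in kale and at 0 and 0.168 CPM in cabbage. It was at least 47.6-fold lower in TO1000 than in kale and was not set apart. A further AXR1 model, Bo8g052710, had 0, 0.41 and 0.295 CPM in TO1000, 5.22, 3.77 and 1.67 CPM in kale and 0 in cabbage. That model was also lower than in kale (log2 difference -3.80, SE 0.71, edgeR Benjamini-Hochberg adjusted p = 0.000687) and was not set apart. Since gene models of 1 name may share sequence, the counts of each of these copies are uncertain.

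PID (Bo4g182790), the PINOID kinase that directs auxin transport, had 1.89, 1.09 and 1.33 CPM in TO1000, 8.11, 4.84 and 7.41 CPM in kale and 11.9 and 20.6 CPM in cabbage. TO1000 was lowest in every library and cabbage highest. PID fell by 2.24 on the log2 scale against kale (SE 0.35, edgeR Benjamini-Hochberg adjusted p = 0.000118) and by 3.53 against cabbage (SE 0.36, adjusted p = 1.31e-06). Both AXR1 (Bo8g115290) and PID remained set apart in all 19 alternatives.

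Of 13 leaf and organ growth genes, all tested, 3 were called higher and none lower (14.1% and 10.3% of all tested genes), and HAT5 alone was set apart (6.35% of all were set apart higher). HAT5 (Bo5g155120), a homeodomain-leucine zipper factor of leaf development, had 20.0, 28.5 and 30.1 CPM in TO1000, 10.0, 8.07 and 11.7 CPM in kale and 1.09 and 2.18 CPM in cabbage. The groups did not overlap and cabbage was far below the other two. HAT5 was higher by 1.41 on the log2 scale than in kale (SE 0.22, edgeR Benjamini-Hochberg adjusted p = 0.000133) and by 3.85 than in cabbage (SE 0.35, adjusted p = 4.32e-07), a difference that was 4.56 without cabbage replicate 2. The growth regulators GRF4 (Bo4g122960, 1.04) and ANT (Bo3g153310, 1.04) were called higher against the average, with log2 differences of 1.52 and 1.55 from kale but only 0.56 and 0.53 from cabbage.

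No trichome gene was set apart, and of 9 tested 1 was called higher and 2 lower against the average (14.1% and 10.3% of all tested genes). EGL3 (Bo9g035460), a bHLH factor of trichome initiation, was called higher against the average by 1.17 on the log2 scale, with a difference from cabbage of 0.23. MYB106 (Bo8g104210), a regulator of epidermal cell shape, was called lower at -2.32, and WRKY44 (Bo3g031650), known as TTG2 in Arabidopsis, at -2.67. WRKY44 had 0.472, 0.137 and 0.738 CPM in TO1000 and 1.09 and 1.17 CPM in cabbage, against 7.15 to 7.71 CPM in kale, so the gap lay mostly between kale and the other morphotypes.

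**Figure D4:**
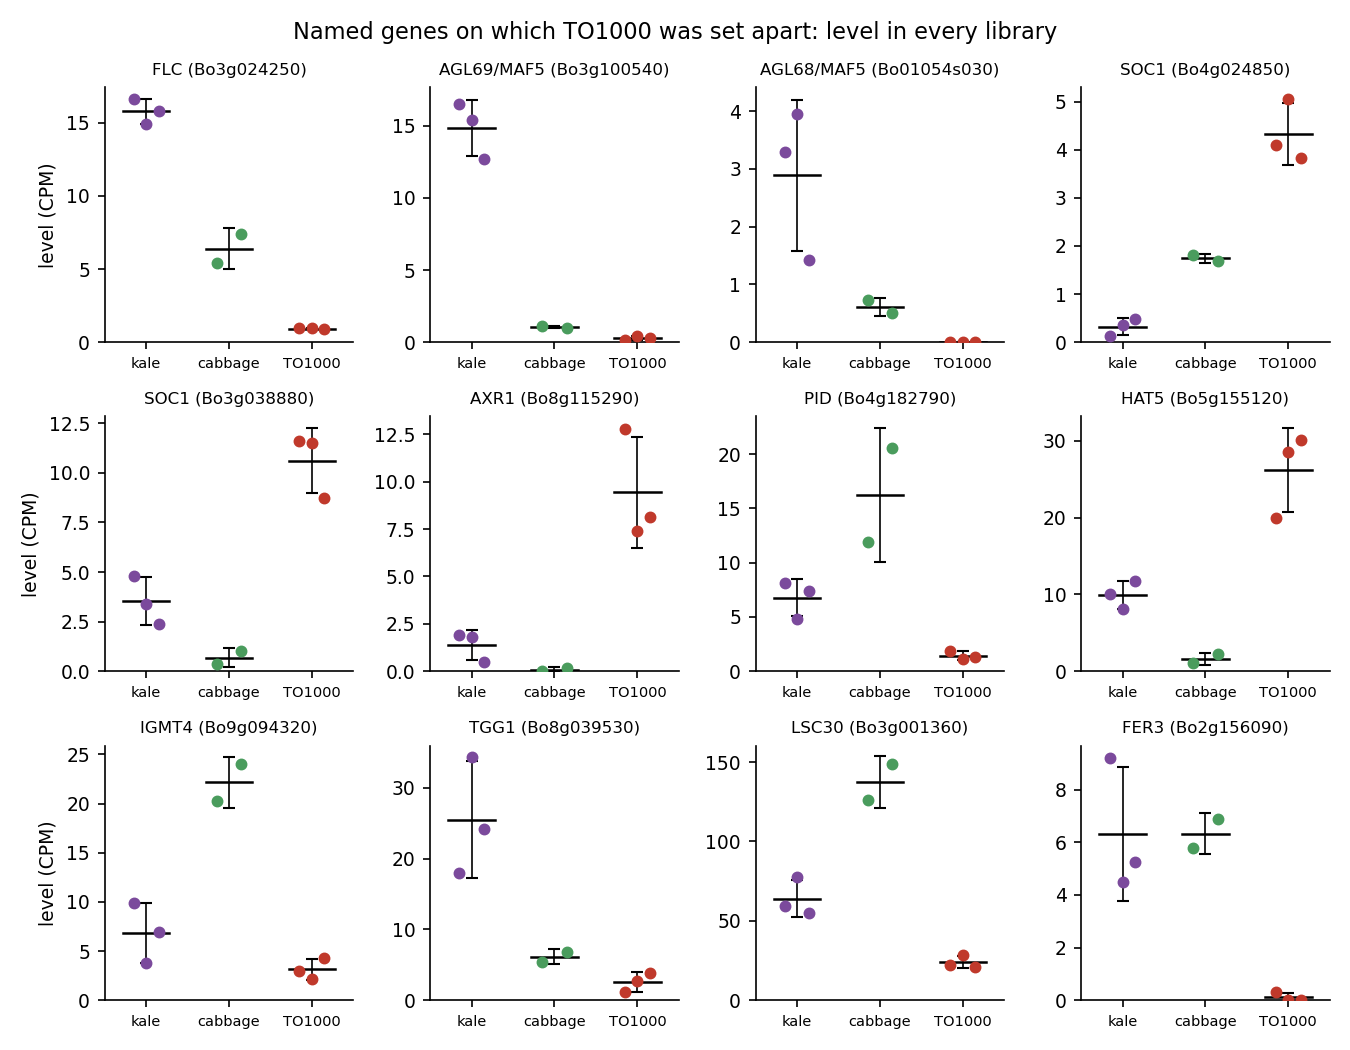
Each panel shows 1 of the 12 listed genes that were set apart, with a point for each library on a linear axis of CPM starting at 0, a bar at the group mean and error bars of 1 SD (n = 3 for kale and TO1000, n = 2 for cabbage). The TO1000 points lie outside both crops in 11 panels, and in the panel of IGMT4 the highest TO1000 point (4.28 CPM) lies above the lowest kale point (3.77 CPM).

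Of 17 glucosinolate and defence genes, 8 were called lower in TO1000 against the average and none higher (10.3% and 14.1% of all tested genes), with a median log2 difference of -1.07, but 6 of the 8 were called lower than in kale and not lower than in cabbage. Only TGG1 (Bo8g039530) and IGMT4 were set apart. TGG1 (Bo8g039530), 1 of 10 listed genes of myrosinase or its binding protein, had 1.10, 2.73 and 3.84 CPM in TO1000, 17.9, 34.3 and 24.2 CPM in kale and 5.43 and 6.87 CPM in cabbage. The groups did not overlap, and cabbage was close to TO1000. The gene fell by 3.29 on the log2 scale against kale (SE 0.33, edgeR Benjamini-Hochberg adjusted p = 1.45e-06) and fell by 1.28 against cabbage (SE 0.42, adjusted p = 0.0241). Without cabbage replicate 2 the fall against cabbage was 1.07 (adjusted p = 0.228), and without TO1000 replicate 1 it was 0.94 (adjusted p = 0.0709). Without the 3 libraries with the most features detected, which leaves TO1000 replicate 1 alone in its group, the log2 difference was -4.52 from kale and -2.48 from cabbage.

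Other TGG1 copies were called lower than in kale and were either higher than in cabbage or not called against it. All 17 genes of the list but 2 were called lower than in kale, beside 14.2% of all tested genes. The study chose most of them for differences of kale in these libraries, so that count is not independent evidence. Against cabbage 3 were called higher, all of them TGG1 copies, and 3 lower, beside 14.8% and 11.5% of all tested genes. The lower ones were TGG1 (Bo8g039530), IGMT4 and IGMT1 (Bo2g092680). IGMT1 (Bo2g092680) had log2 differences of -1.61 from cabbage and 3.49 from kale. Bo2g155820 had 52.6, 57.0 and 54.2 CPM in TO1000, 364, 879 and 419 CPM in kale and 34.4 and 48.3 CPM in cabbage, so TO1000 lay slightly above cabbage. Bo2g155810, at 2.05 to 3.46 CPM in TO1000, 247 to 354 CPM in kale and 0.670 and 1.09 CPM in cabbage, was called lower against the average (log2 difference -2.45) and higher than in cabbage (1.77, edgeR Benjamini-Hochberg adjusted p = 0.00978). Bo6g095790 and Bo8g063740 were also lower than in kale (-2.02 and -1.41) and higher than in cabbage (1.82 and 1.98, adjusted p = 0.0252 and 0.00108). These copies are near relatives, and reads shared between them would make each value uncertain.

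IGMT4 (Bo9g094320), an O-methyltransferase of indole glucosinolates, had 2.99, 2.19 and 4.28 CPM in TO1000, 9.90, 3.77 and 6.93 CPM in kale and 20.3 and 24.0 CPM in cabbage. TO1000 overlapped kale in 1 library and was far below cabbage. The fall against cabbage was 2.82 on the log2 scale (SE 0.34, edgeR Benjamini-Hochberg adjusted p = 1.02e-05), and that against kale was 1.15 (SE 0.34, adjusted p = 0.0138). The latter was lost without kale replicate 1 (log2 difference -0.70, adjusted p = 0.136) and without TO1000 replicate 2 (log2 difference -0.92, adjusted p = 0.0707).

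Among 14 vitamin, mineral and plastid genes, all tested, 2 were called higher and 3 lower (14.1% and 10.3% of all tested genes), and the 2 set apart both encode ferritins, the iron storage proteins of plastids. LSC30 (Bo3g001360), a ferritin gene, had 22.4, 28.3 and 21.0 CPM in TO1000, 59.5, 77.5 and 55.0 CPM in kale and 126 and 149 CPM in cabbage. The 3 groups were separated in every library, with TO1000 lowest and cabbage highest. LSC30 fell by 1.42 on the log2 scale against kale (SE 0.19, edgeR Benjamini-Hochberg adjusted p = 2.08e-05) and by 2.53 against cabbage (SE 0.20, adjusted p = 9.97e-08). Of the 12 listed genes set apart it had the highest mean level in kale and in cabbage.

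FER3 (Bo2g156090), the other ferritin gene, had 2, 0 and 0 counts in TO1000, 67, 25 and 22 in kale and 16 and 41 in cabbage, that is 0.315, 0 and 0 CPM against 9.21, 4.48 and 5.26 CPM and 5.79 and 6.87 CPM. TO1000 was almost without counts, while kale and cabbage overlapped. The ratio was 68.4 to kale (95% exact interval 18.5 to 572) and 66.8 to cabbage (17.7 to 565), intervals that cover counting error only. Both counts in TO1000 were in replicate 1. FER3 was the only 1 of the 12 that was not called between kale and cabbage (log2 difference 0.00, edgeR Benjamini-Hochberg adjusted p = 0.997), which does not show that they were equal. LSC30 and FER3 remained set apart in all 19 alternatives. Both listed ascorbate oxidase (ASO) genes called higher against the average, Bo7g118970 and Bo2g165650, were at 0 in kale and did not pass the test against cabbage.

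Genes without a name in the files could be described only by identifier. Among features set apart higher, ENSRNA049449022, a non-coding RNA model, had the largest fitted change in the smaller of its comparisons, a rank that rests on groups at 0. It had 259, 256 and 267 counts in TO1000 and 0 in all 5 other libraries. It was at least 217-fold higher than in kale and at least 111-fold higher than in cabbage. Its counterpart in the other direction, Bo9g160110, had 0 counts in TO1000, 436, 253 and 180 in kale and 205 and 288 in cabbage. It was at least 348-fold lower in TO1000 than in kale and at least 385-fold lower than in cabbage. For a feature at 0 in kale or cabbage, absence from the genome, a difference in sequence and silence cannot be told apart in these counts. A gene model at 0 in TO1000 is part of the TO1000 assembly to which the reads were mapped.

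The most abundant gene set apart higher, Bo4g173590, had 4970, 14800 and 8650 CPM in TO1000, 2260, 532 and 1240 CPM in kale and 2050 and 425 CPM in cabbage. All TO1000 libraries were above the rest, but replicates within each morphotype differed widely. Its log2 difference was 2.81 against kale (SE 0.55, edgeR Benjamini-Hochberg adjusted p = 0.000816) and 2.93 against cabbage (SE 0.65, adjusted p = 0.00215). The difference from cabbage was 4.46 without cabbage replicate 1 and 2.20 without cabbage replicate 2, and that from kale was 3.44 without kale replicate 1. Without the 3 libraries with the most features detected, which leaves a single TO1000 library, they were 1.84 from kale and 2.02 from cabbage. The most abundant gene set apart lower, Bo1g025800, had 1580, 2470 and 2370 CPM in TO1000, 7340, 7350 and 6900 CPM in kale and 4110 and 4660 CPM in cabbage. Here too the libraries were separated, and the fall of 1.04 against cabbage (SE 0.24, adjusted p = 0.00282) was just past the threshold. It was 0.95 without cabbage replicate 2 and 0.86 without TO1000 replicate 1, and so short of it.

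By the chromosome number in the identifier, the genes set apart were spread over all 9 chromosomes. The share set apart higher was 5.10 to 7.52% of the tested genes of a chromosome and the share set apart lower 4.81 to 6.39%. Features off the chromosomes differed in the higher direction. Of 977 tested genes on unplaced scaffolds 159 (16.3%) were set apart higher and 58 (5.94%) lower, and of 89 tested non-coding RNA models 31 (34.8%) were higher and 3 (3.37%) lower, beside 6.35% and 5.71% over all tested genes. These features were also of lower abundance, with median levels of 4.98 and 2.45 CPM against 9.71 CPM on the chromosomes. Off the chromosomes together 17.8% were set apart higher, beside 6.35% of all tested genes. The same shares were 9.87% beside 3.64% without cabbage replicate 2, 12.3% beside 4.76% without the 3 libraries with the most features detected, and 6.38% beside 4.09% with no count filter. A single library stood for cabbage without cabbage replicate 2, and for TO1000 without those 3 libraries. TO1000 is the line from which the reference was assembled, so an effect of mapping and an effect of expression cannot be told apart here. The same holds for the genes set apart higher on the chromosomes, the named ones included.

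Some genes set apart the same way were next to each other. In identifier order on the chromosomes, 289 of 1596 higher genes (18.1%) had an adjacent tested gene also set apart higher, and 295 of 1545 lower genes (19.1%) had one also set apart lower. Among genes that were not set apart, 11.0% and 10.5% had such a neighbour, a difference that was not tested. There were 20 runs of at least 3 consecutive higher genes and 17 of lower genes, the longest being 6 genes in each direction, on chromosome 7 and chromosome 1.

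**Figure D5:**
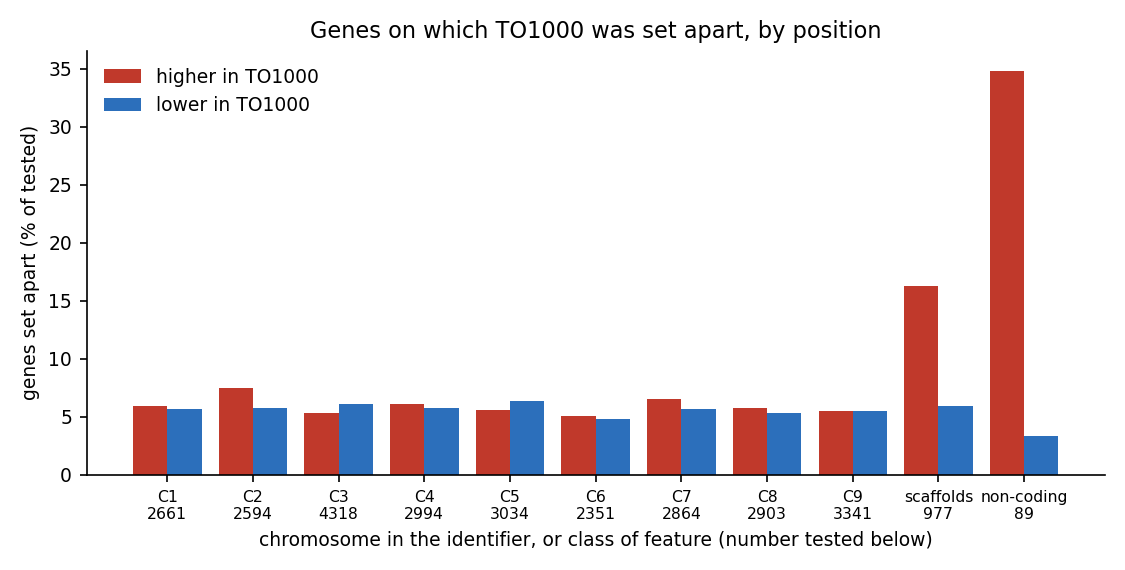
Bars give the percent of tested genes on which TO1000 was set apart, higher (red) and lower (blue), for the 9 chromosomes (C1 to C9), the unplaced scaffolds and the non-coding RNA models, with the number tested beneath each. The chromosomes lie between 4.81% and 7.52% in both directions, while the scaffolds reach 16.3% and the non-coding models 34.8% in the higher direction.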

How the data were processed

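The authors amplified polyadenylated cDNA by PCR, sequenced single-end reads, trimmed adapters (Cutadapt 2.4), aligned the reads by STAR in 2 passes to the TO1000 assembly of EnsemblPlants and deposited raw read counts per gene, without normalization. The strand setting of the counting is not given in the sources used here, so genes that overlap on opposite strands are uncertain. No molecular identifiers are mentioned, so bounds and intervals cover counting error only.

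Libraries were grouped by their titles, and all 8 were used. The 3 replicates per morphotype were biological per the study's methods. The study itself left out 1 cabbage replicate, which had yielded few reads and poor quality. No pair of replicates differed by as little as sampling noise (chi-square per gene 6.31 to 18.6). Of 60586 features, 6586 had 0 counts throughout and 28126 passed filterByExpr (minimum count 10, minimum total 15). The deposited counts were fitted in edgeR 4.0.16 (R 4.3.3) with TMM factors (0.868 to 1.20) and a quasi-likelihood model with morphotype as its only term (biological coefficient of variation 0.188). All tests were two-sided. The contrast of TO1000 with the average of kale and cabbage was adjusted by Benjamini-Hochberg over 28126 genes, and the 3 pairwise comparisons together over 84378 tests. Both comparisons behind a gene set apart share the TO1000 libraries. The scripts were tested on simulated data.

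Same-numbered replicates did not deviate together (correlations from -0.12 to 0.20), so no pairing was used. Alternatives were RLE and upper-quartile factors, no TMM factors, no filter on counts, a minimum mean of 10 counts, DESeq2 1.42.0, glmTreat against a 2-fold change, FDR alone, FDR within each comparison, thinning, a replicate block, the 5 other libraries as 1 group, and each library left out. Named genes were the listed genes set apart and, for genes without a name, the gene with the largest smaller fold change and the most abundant gene of each direction. The lists hold 79 genes that the study's text names with an identifier and 4 from an earlier account. None of the identifiers matched the available RefSeq table, so names are the study's. The genes and lists were chosen with earlier results of these data known.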

Additional observations from a re-analysis of the deposited data

How the results depend on the processing

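The number of genes called against the average of both crops was 3597 with glmTreat, 11725 with FDR alone and 3975 with the 5 other libraries as 1 group, and 5913 to 7211 when each library was left out. Genes set apart numbered 1609 with glmTreat, 5178 with FDR alone and 2376 to 3752 with a library left out, and of these 162, 1291 and 346 to 693 were called between kale and cabbage. The share of higher genes among the contrast's calls was 59.3% with RLE factors, 65.8% with no count filter, 61.2% with upper-quartile factors, 55.2% with a mean of at least 10 counts, 53.4% with FDR alone, 55.8% thinned, 44.6% with 1 group of 5, 54.1% without the 3 libraries with the most features detected, and 54.7 to 61.8% with a library left out. Among genes set apart it was 57.3% with no count filter, 56.0% with upper-quartile factors, 50.2% with a mean of at least 10 counts, 49.2% with glmTreat, 48.6% with FDR alone, 47.1% without the 3 libraries and 46.4 to 59.3% with a library left out. Listed genes called numbered 18 with 1 group of 5 and 28 to 32 with a library left out, and those set apart 5 with glmTreat and 8 to 12. Off the chromosomes, 6.38% were set apart higher with no count filter, 15.2% with DESeq2, 9.38% with glmTreat, 12.3% without the 3 libraries and 9.87 to 21.9% with a library left out, beside 4.09, 5.34, 2.81, 4.76 and 3.64 to 7.95% of all tested genes. All TO1000 libraries lay above the others on 6219 genes and below on 2444 without TMM factors, on 7358 and 7321 without the 3 libraries, and on 4196 to 5165 and 3905 to 4997 with a library left out. The cause of these shifts was not tested, except that fewer libraries separate by construction more often.

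With no count filter 54000 genes were tested and the median of all genes moved by 0.31 on the log2 scale; no other setting moved it by over 0.1. With the replicate number as a block, which the replicate check did not favour, 6559 genes were called and 3222 set apart. The contrast kept its direction and call for every named gene in the alternatives run, except that Bo1g025800 had an adjusted p of 0.0632 with glmTreat. Set apart status held in 18 of 19 alternatives for SOC1 (Bo3g038880) and HAT5 and in 15 of 19 for IGMT4, TGG1 (Bo8g039530) and Bo1g025800. Depth limits the genes with few counts: a count of 0 allows 0.147 CPM over the TO1000 group, 0.176 over kale and 0.344 over cabbage.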
